A study of Mus musculus with 15 samples.

Results

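Nr4a1, Nr4a2 and Nr4a3, the 3 orphan nuclear receptors of the Nr4a family, were followed in mouse kidneys together with 7 other immediate early genes: the AP-1 subunits Fos, Fosb, Jun and Junb, the zinc finger factor Egr1, the bZIP factor Atf3 and the survival gene Ier3. These 10 genes were picked by symbol from the 22180 genes that the array table names by a single symbol, and the entry of highest mean level was used where a gene had several. They were picked with earlier results of the Cre comparisons in view, so their differences between Cre+ and Cre- kidneys are given as a description with standard errors. Where the fit's calls in these comparisons are counted, they stand beside the share of all genes called and nothing is read from them. The question the set addresses is how Nr4a1 compares with the other fast-induced genes across genotype and age.

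All 15 mice, the controls included, had the PRCC-TFE3 fusion inserted at Rosa26 behind a loxP-flanked stop (LSL). The fusion joins a splicing-associated protein to TFE3, an MiT family transcription factor, and occurs in translocation renal cell carcinoma. Cre+ mice also carried KSP-Cre, a transgene driven by the promoter of Cdh16, the cadherin of kidney tubule epithelium. At 4 months there were 4 Cre- and 4 Cre+ mice, and at 7 months 3 Cre- and 4 Cre+ mice, with 1 array per mouse. There was no KSP-Cre group lacking the fusion allele, so an effect of Cre itself and an effect of the fusion cannot be told apart. RNA came from whole kidney, where a change in the number of cells of a type and a change in RNA per cell cannot be told apart.

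Immediate early genes are switched on within minutes of a stimulus, without new protein synthesis, by factors already present in the cell such as SRF with its Elk partners and CREB. Their products are mostly transcription factors, and in most cells the transcripts are short-lived and return to their basal level after a transient stimulus. The Nr4a receptors have no established natural ligand, so their activity follows largely from how much of them is made; they bind DNA as monomers at the NBRE element, and Nr4a1 and Nr4a2 can also pair with RXR. Fos and Jun family proteins pair to form AP-1, and Atf3, a factor induced by many kinds of cell stress, can pair with Jun proteins. In kidney these genes are known for their response to ischaemia and to tubule injury.

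The stretches just before the transcription start show how close the promoters of the family are in one respect. The RefSeq promoter table of GRCm38.p6 was searched over the 250 bases before each start, on both strands, for 9 of the 10 genes. The word TGACG, read on the other strand as CGTCA, is the core of the CRE element that CREB binds, and it occurred 4 times in each of the Nr4a1, Nr4a2 and Nr4a3 windows. Of all 32851 windows of that length, 45 (0.137%) held it at least 4 times. Fos held it 2 times (3.9% of windows had as many), Fosb, Junb and Atf3 held it 1 time each (17.8% of windows), and Jun and Ier3 held it 0 times. The windows of 4 genes are shown because they set the receptor that was high in Cre+ kidneys beside a sister that was not, and beside a Fos gene and an Atf3 gene with fewer copies; they run 5′ to 3′ on the gene's strand, and capitals mark TGACG or CGTCA.
Nr4a1: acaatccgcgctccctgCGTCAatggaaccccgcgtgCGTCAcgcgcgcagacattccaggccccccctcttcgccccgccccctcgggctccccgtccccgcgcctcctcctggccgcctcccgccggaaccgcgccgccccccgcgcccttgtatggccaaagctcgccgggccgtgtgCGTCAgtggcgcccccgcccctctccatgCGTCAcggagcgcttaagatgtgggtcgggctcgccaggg
Nr4a2: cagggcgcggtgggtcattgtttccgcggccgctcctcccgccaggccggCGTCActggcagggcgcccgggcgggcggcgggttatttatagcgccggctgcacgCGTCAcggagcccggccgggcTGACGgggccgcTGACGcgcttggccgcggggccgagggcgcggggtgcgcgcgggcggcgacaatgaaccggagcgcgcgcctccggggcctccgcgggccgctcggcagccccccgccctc
Fos: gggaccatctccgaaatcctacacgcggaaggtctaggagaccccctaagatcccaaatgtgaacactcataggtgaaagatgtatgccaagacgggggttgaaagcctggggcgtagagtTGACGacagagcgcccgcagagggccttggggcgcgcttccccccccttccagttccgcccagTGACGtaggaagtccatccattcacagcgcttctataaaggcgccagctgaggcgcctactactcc
Atf3: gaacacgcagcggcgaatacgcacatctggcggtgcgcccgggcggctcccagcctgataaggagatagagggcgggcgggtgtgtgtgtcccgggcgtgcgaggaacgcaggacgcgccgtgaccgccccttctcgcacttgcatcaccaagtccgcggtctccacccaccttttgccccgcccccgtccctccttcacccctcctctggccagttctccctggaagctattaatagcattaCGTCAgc

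These windows lie at chr15:101266596-101266845 (+) for Nr4a1, chr2:57124004-57124253 (-) for Nr4a2, chr12:85473640-85473889 (+) for Fos and chr1:191183334-191183583 (-) for Atf3. The last 3 abut the edge of the gene as RefSeq draws it. The Nr4a1 window lies inside the gene's span of 101253902 to 101274795 and precedes the start of a transcript within it. Whether this window is exonic or intronic in the longer transcripts was not analysed here. The starts that the Nr4a3 and Fosb windows precede also lie inside the spans of their genes and not at the edge. Counted back from the start, the 4 copies of Nr4a1 begin at positions -233, -213, -69 and -40, and those of Nr4a2 at -200, -144, -123 and -111. None of the 9 windows held the full CRE TGACGTCA (1.55% of all windows did), the AP-1 word TGANTCA (6.75%), the NBRE word AAAGGTCA (1.34%), the E-box words CACGTG (6.02%) and CATGTG (12.3%) or the CArG box of SRF (1.47%). The core word was chosen after these had been found absent, so its count is a description of the letters in these windows and not of a bound site.

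The deposited values are RMA levels on the log2 scale, with array medians between 4.40 and 4.55 and no detection calls. As a guide to the dim end, Xist was measured in the 8 arrays of high Y-linked level, where it should be silent, and gave 3.35 to 3.93. Nr4a3 was at or under that upper value in 13 of 15 arrays and Fosb in 8, so differences in them may lie below what the array resolves. The other 8 genes exceeded it in every array, but Fos (lowest 3.97) and Nr4a2 (lowest 4.02) did so narrowly. Their highest values were 4.59 and 4.76, so small differences in them may also be poorly resolved. By Y-linked level 8 mice were high and 7 low, with both kinds in each group. Nephron markers, for which kidney is the labelled tissue, had summed levels of 13.52 to 14.25. Tfe3 differed between Cre+ and Cre- by 0.03 (SE 0.09, limma adjusted p = 0.924) at 4 months and the 7-month value was 0.22 (SE 0.10, adjusted p = 0.139). Prcc gave 0.09 (SE 0.12, adjusted p = 0.776) and then -0.25 (SE 0.13, adjusted p = 0.201). Cdh16 itself stood at -0.17 at 4 months (SE 0.12, adjusted p = 0.548) and was lower by the test at 7 months, at -0.43 (SE 0.13, adjusted p = 0.0256). The probes of Tfe3 and Prcc were not assigned to the part each gene gives to the fusion, so these values do not check the labels.

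Nr4a1 stood far above its controls in every Cre+ kidney at both ages. Its log2 levels in Cre- kidneys were 5.13, 5.73, 5.34 and 4.98 at 4 months and 4.95, 5.08 and 5.17 at 7 months. In Cre+ kidneys they were 8.90, 8.85, 9.06 and 8.95 at 4 months and 8.94, 8.99, 9.72 and 9.35 at 7 months. The lowest Cre+ value was thus over 3 log2 units above the highest Cre- value, and the 4 Cre+ kidneys of 4 months had a mean of 8.94 with a spread of 0.09 (SD, n = 4). The difference was 3.64 (SE 0.17), a 12.5-fold level, at 4 months and 4.18 (SE 0.18), or 18.1-fold, at 7 months, and at both ages Nr4a1 was number 10 of 22180 genes ranked from the highest difference down. Taken separately by Y-linked level, high and then low, the difference was 3.64 and 3.65 at 4 months and 3.84 and 4.58 at 7 months. The 7-month values rest on 2 controls in the high arrays and on 1 in the low arrays, the kidney at 4.95.

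Nr4a2, a receptor known for its part in dopamine neurons and as a fast-induced gene, did not share that pattern. Its levels were 4.65, 4.02, 4.26 and 4.5 in Cre- and 4.48, 4.76, 4.40 and 4.35 in Cre+ kidneys at 4 months. At 7 months they were 4.15, 4.44 and 4.65 in Cre- and 4.29, 4.21, 4.13 and 4.21 in Cre+ kidneys. The groups overlapped at both ages, with differences of 0.14 (SE 0.14) and -0.20 (SE 0.15). The 95% confidence intervals of the log2 difference ran from -0.16 to 0.43 and from -0.52 to 0.12, against 3.29 to 4.00 and 3.80 to 4.56 for Nr4a1.

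Nr4a3, the third receptor, was dim throughout. Its levels at 4 months were 3.53, 3.53, 3.43 and 3.62 in Cre- and 3.65, 3.78, 3.85 and 3.93 in Cre+ kidneys. At 7 months they were 3.62, 3.89 and 3.43 in Cre- and 3.62, 3.87, 3.5 and 4.01 in Cre+ kidneys. The Cre+ kidneys lay above the Cre- kidneys at 4 months only, by 0.27 (SE 0.12), and at 7 months the groups overlapped with a difference of 0.10 (SE 0.13). At this level, close to that of silent Xist, a small difference cannot be read as one of the transcript.

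**Figure D1:**
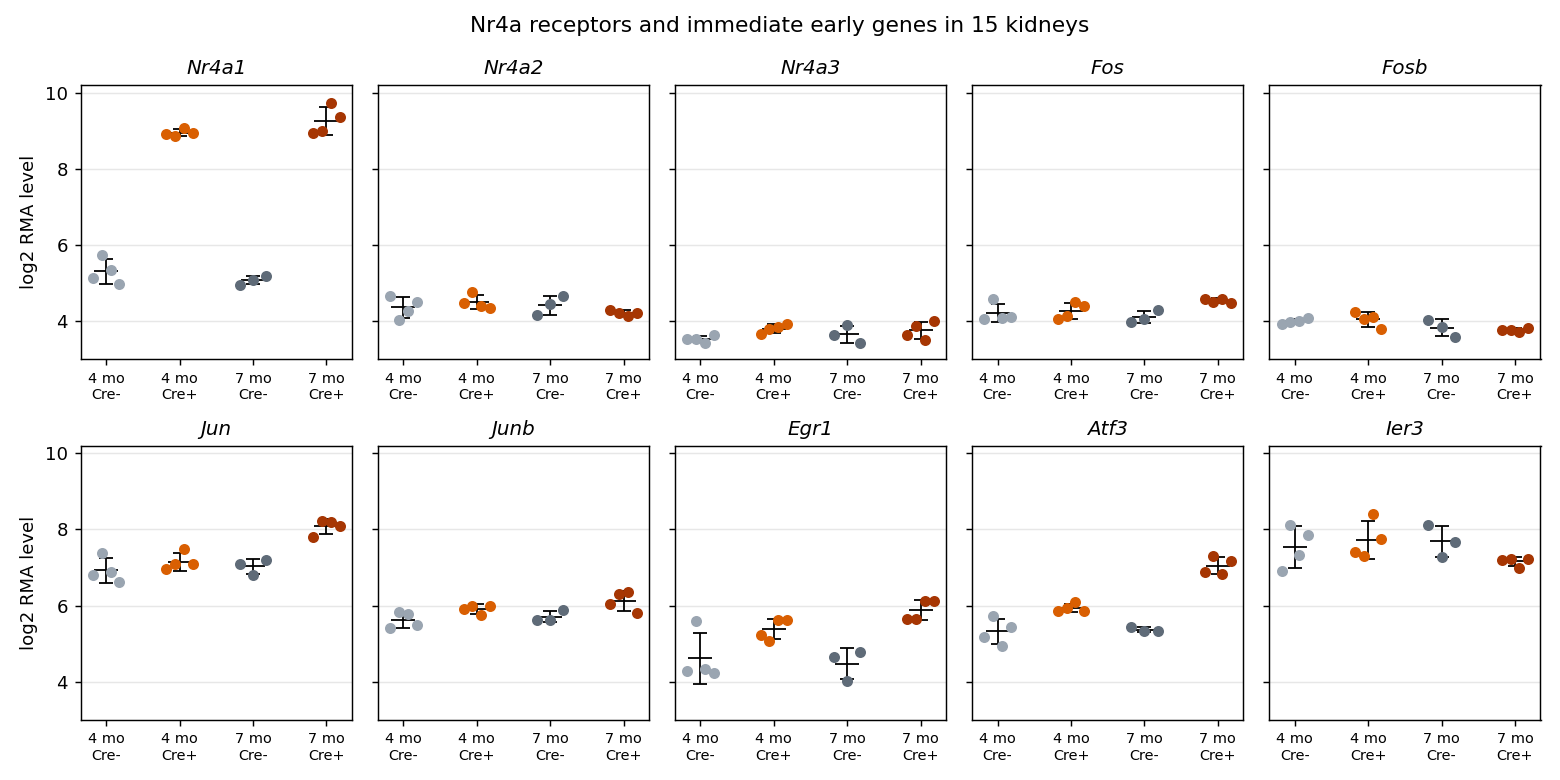
Log2 RMA level (y axis) of the 10 genes in each of the 4 groups (x axis), with 1 point per kidney, horizontal marks for group means and bars of 1 SD (n = 4, 4, 3 and 4). Nr4a1 lies between 8.85 and 9.72 in all Cre+ kidneys and at or below 5.73 in all Cre- kidneys, Jun and Atf3 are highest in the 7-month Cre+ group, and Nr4a2, Nr4a3 and Fosb stay low in every group.

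Among the AP-1 genes, Jun had the largest difference, and at 7 months. Jun, the main partner of Fos proteins, had levels of 6.80, 7.39, 6.89 and 6.63 in Cre- and 6.95, 7.09, 7.48 and 7.08 in Cre+ kidneys at 4 months, which overlapped. At 7 months it had 7.08, 6.81 and 7.19 in Cre- and 7.81, 8.23, 8.19 and 8.08 in Cre+ kidneys, with every Cre+ value above every other kidney of the study. The differences were 0.22 (SE 0.16) and 1.05 (SE 0.17), the latter a 2.07-fold level. Junb, a Jun relative that restrains some AP-1 targets, had levels of 5.41, 5.83, 5.77 and 5.48 against 5.92, 6.0, 5.74 and 5.99 at 4 months. At 7 months it had 5.63, 5.63 and 5.88 against 6.03, 6.30, 6.36 and 5.80, so that 1 Cre+ kidney at each age fell among the controls and the differences were 0.29 (SE 0.13) and 0.41 (SE 0.14).

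Fos, the classic fast-induced gene, stayed low in all groups. At 4 months it had 4.06, 4.57, 4.08 and 4.11 in Cre- and 4.04, 4.14, 4.5 and 4.38 in Cre+ kidneys, and the highest value belonged to a control. At 7 months it had 3.97, 4.06 and 4.28 in Cre- and 4.59, 4.49, 4.59 and 4.46 in Cre+ kidneys, which did not overlap. The differences were 0.06 (SE 0.13) and 0.43 (SE 0.14), the latter 1.35-fold. Fosb, a Fos relative known for lasting forms in brain, had 3.91, 3.98, 4.01 and 4.07 against 4.24, 4.05, 4.10 and 3.78 at 4 months. Those of 7 months were 4.02, 3.85 and 3.59 against 3.75, 3.77, 3.71 and 3.82, with differences of 0.05 (SE 0.11) and -0.06 (SE 0.12) and overlap at both ages.

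Egr1 and Atf3 had higher means in Cre+ kidneys at both ages, with the larger differences at 7 months. Egr1, a growth factor response gene, had 4.28, 5.60, 4.34 and 4.24 in Cre- and 5.24, 5.08, 5.62 and 5.62 in Cre+ kidneys at 4 months, where a single control reached the Cre+ range. The 7-month levels were 4.64, 4.01 and 4.77 in Cre- and 5.65, 5.64, 6.11 and 6.12 in Cre+ kidneys, with no overlap. The differences were 0.77 (SE 0.26) and 1.41 (SE 0.28), the latter 2.66-fold, and without Cre- replicate 2 the 4-month difference was 1.10 (SE 0.19). Atf3 had 5.18, 5.73, 4.94 and 5.44 in Cre- and 5.86, 5.93, 6.10 and 5.85 in Cre+ kidneys at 4 months. The 7-month levels were 5.44, 5.33 and 5.32 in Cre- and 6.89, 7.31, 6.82 and 7.17 in Cre+ kidneys. The groups did not overlap at either age, with differences of 0.61 (SE 0.15, 1.53-fold) and 1.68 (SE 0.16, 3.21-fold).

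Ier3, an early gene that protects some cells from death, had a lower mean in Cre+ kidneys at 7 months. Its 4-month levels ranged widely, at 6.90, 8.11, 7.32 and 7.85 in Cre- and 7.42, 7.29, 8.40 and 7.76 in Cre+ kidneys. At 7 months it had 8.11, 7.28 and 7.68 in Cre- and 7.19, 7.22, 6.99 and 7.23 in Cre+ kidneys, all of the latter below the controls. The differences were 0.17 (SE 0.25) and -0.53 (SE 0.28), and the 95% confidence interval of the second, -1.11 to 0.05, included 0. Fitted by Y-linked level, the 7-month difference was -0.28 (SE 0.19) in the high arrays, with 2 controls, and -1.0 (SE 0.26) in the low ones, with 1 control.

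Across the 10 genes, the difference between Cre+ and Cre- was above 0 for 10 at 4 months and for 7 at 7 months, with medians of 0.25 and 0.42, beside medians of 0.05 and -0.04 over all genes tested. At a Benjamini-Hochberg adjusted p below 0.05 in the limma fit over all genes, 2 of 10 were higher at 4 months (Nr4a1 and Atf3) and 0 lower, where 2.73% of all genes were called higher and 0.803% lower. At 7 months 5 of 10 were called higher (Nr4a1, Fos, Jun, Egr1 and Atf3) and 0 lower, where 11.7% of all genes were called higher and 10.8% lower. At an unadjusted p below 0.05 there were 5 and 6 of the 10, beside 3616 and 7288 of all 22180 genes. Cre+ kidneys lay wholly above the controls for 3 of 10 at 4 months (6.31% of all genes) and for 5 at 7 months (14.0%), and wholly below for 1, Ier3, at 7 months (15.2%). Since the genes were picked with these differences known, the counts describe the choice. The 4-month call of Atf3 was lost under quantile normalization, median centring, the plain linear model and a fit of both 4-month groups alone. It was also lost without any 1 of 5 arrays. Over all 15 arrays left out in turn its difference ran from 0.49 to 0.75. The value of 0.75 came without Cre- replicate 2, where the call was kept. The filter on dim genes left out Fos, Fosb, Nr4a2 and Nr4a3, so it gave no value for them. Fos at 7 months fell short of the threshold in the plain linear model and without any 1 of 5 arrays (Cre- replicates 1 and 2, Cre+ replicates 1, 2 and 3). In turn, Junb at 7 months passed with the filter on dim genes, the replicate block, the Y-linked covariate and without any 1 of 4 arrays (4-month Cre- replicates 1 and 2, 7-month Cre- replicate 3 and Cre+ replicate 4). Egr1 at 4 months passed with the covariate and without Cre- replicate 2, and Ier3 at 7 months was called lower with the covariate.

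**Figure D2:**
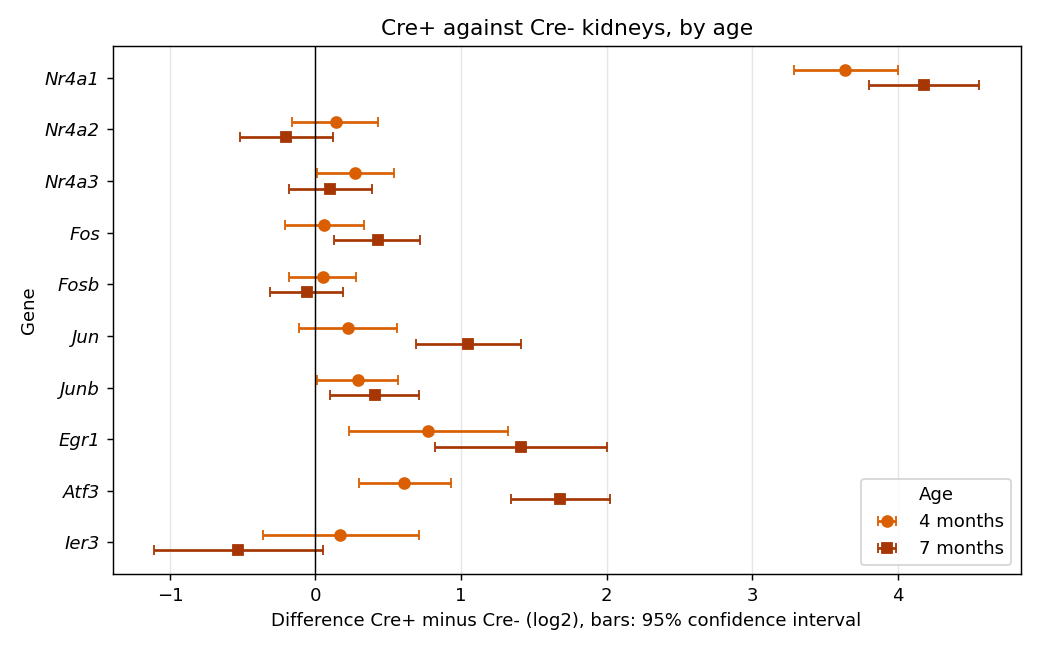
Difference between Cre+ and Cre- kidneys on the log2 scale (x axis) for the 10 genes (y axis) at 4 and 7 months, with bars for the 95% confidence interval from the fit over 15 arrays. Nr4a1 stands at 3.64 and 4.18, Atf3, Egr1 and Jun reach 1.68, 1.41 and 1.05 at 7 months, and the intervals of Nr4a2, Fosb and Ier3 include 0 at both ages.

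Within Cre+ kidneys Jun and Atf3 rose with age, while the difference of Nr4a1 did not pass the test; the genes were not tested against each other. From 4 to 7 months Atf3 rose by 1.12 on the log2 scale (SE 0.15, 2.17-fold, limma adjusted p = 0.000163) and Jun rose by 0.93 (SE 0.16, 1.9-fold, adjusted p = 0.00118), and for both every 7-month Cre+ kidney lay above every 4-month one. Nr4a1 differed by 0.31 (SE 0.17, adjusted p = 0.252), with a 95% confidence interval of -0.04 to 0.66 and overlapping groups. The other 7 genes did not pass: Egr1 stood at 0.49 (SE 0.26, adjusted p = 0.24) and Fos at 0.27 (SE 0.13, adjusted p = 0.201), and Ier3 stood at -0.56 (SE 0.25, adjusted p = 0.174), Nr4a2 at -0.29 (SE 0.14, adjusted p = 0.204) and Fosb at -0.28 (SE 0.11, adjusted p = 0.116), while Junb was at 0.21 and Nr4a3 at -0.05. In the high Y-linked arrays alone Jun rose by 1.0 (limma adjusted p = 0.0129) and Ier3 was at -0.15 (adjusted p = 0.74). In the low arrays, whose fit held 1 control of 7 months, Jun was at 0.85 and Ier3 at -0.97. Without 4-month Cre+ replicate 4, Fosb was lower by the test (-0.37, adjusted p = 0.0464). The 2 of 10 genes called higher compare with 4.12% of all genes, and 0 were lower against 6.71%; 4 of 10 had an unadjusted p below 0.05, as did 5766 of all 22180 genes. This comparison shares its Cre+ arrays with those the genes were picked on, so it is not independent of that choice.

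In Cre- kidneys the 10 genes did not change with age by the same test. Their differences between 7 and 4 months lay between -0.23 (Nr4a1, SE 0.18) and 0.14 (Ier3, SE 0.28), each with an adjusted p of 1.0, and 0 of 10 had an unadjusted p below 0.05. Of all genes, 1 (0.00451%) was called in either direction and 600 had an unadjusted p below 0.05, while the plain linear model called 0. With 3 and 4 controls, the interval for Egr1 still ran from -0.73 to 0.45.

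The difference between the Cre effects at both ages was past the threshold for 1 of 10 genes, beside 0.96% of all genes called higher. Atf3 had an effect larger by 1.07 at 7 months (SE 0.22, limma adjusted p = 0.0177). Jun followed at 0.83 (SE 0.23, adjusted p = 0.0779), Egr1 at 0.63 (SE 0.38, adjusted p = 0.438), Nr4a1 at 0.54 (SE 0.25, adjusted p = 0.299) and Fos at 0.37 (SE 0.19, adjusted p = 0.358). Ier3 stood at -0.71 (SE 0.37, adjusted p = 0.375) and Nr4a2 at -0.34 (SE 0.21, adjusted p = 0.436). Atf3 had an adjusted p of 0.061 in the plain linear model and of 0.0508 without 7-month Cre- replicate 2, and Jun passed without 4-month Cre+ replicate 3 (0.94, adjusted p = 0.0472). Fitted by Y-linked level, with fewer kidneys, Atf3 gave 0.94 (adjusted p = 0.17) in the high and 1.17 (adjusted p = 0.122) in the low arrays. The effects compared here are those the genes were picked on.

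Kidneys of the same group differed in several of these genes at once. Replicate 2 of the 4-month Cre- group was the highest of its 4 kidneys in 7 of 10 genes (Nr4a1, Fos, Jun, Junb, Egr1, Atf3 and Ier3). Replicate 3 of the 7-month Cre- group was the highest in 6, and replicate 3 of the 4-month Cre+ group in 5. Without the first of these, the 4-month differences were 3.79 for Nr4a1, 0.75 for Atf3, 0.38 for Jun, 0.36 for Junb, 0.36 for Ier3 and 0.18 for Fos. Each was larger than with that kidney, which follows from leaving out the highest control of a gene. The labels give no time between death and freezing, and its part in these values was not tested.

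Over deviations from the group means, Fos was set against the other 9 genes within each genotype, 18 relations in all, with exact two-sided permutation tests. Exact here means that all orders were enumerated. The deviations are tied by their group means and were permuted across both ages, so the p-values are approximate. None passed after Benjamini-Hochberg adjustment (lowest adjusted p = 0.12 for Pearson's r and 0.529 for Spearman's rho), and 5 and 1 had an unadjusted p below 0.05. In the 7 Cre- kidneys Nr4a1 gave r = 0.86 (exact permutation p = 0.00972, adjusted p = 0.12) and rho = 0.71 (exact permutation p = 0.0881, adjusted p = 0.529). Without the 2 kidneys farthest in Fos its r was 0.20. Egr1 gave r = 0.87 (exact permutation p = 0.027) and rho = 0.39 (exact permutation p = 0.396), and r = -0.55 without those 2 kidneys, so both relations rest on them. In the 8 Cre+ kidneys Nr4a1 gave r = 0.26 (exact permutation p = 0.536) and rho = 0.43 (exact permutation p = 0.299), with r = 0.20 without the 2 farthest. The arrays of 1 genotype and 1 Y-linked kind were fewer than 6, too few for a value within kinds.

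**Figure D3:**
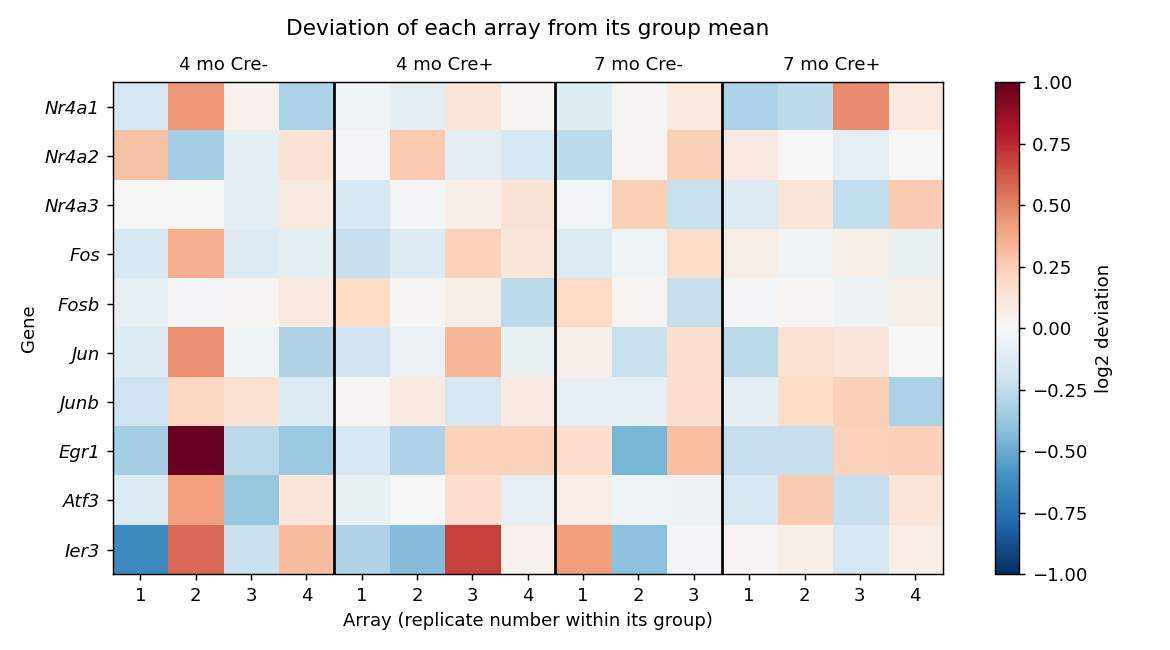
Deviation of each kidney from its group mean on the log2 scale (colour) for the 10 genes (rows) in the 15 arrays (columns, by group and replicate number). Replicate 2 of the 4-month Cre- group is the highest of its group in 7 of the 10 genes, with Egr1 at 5.60 against 4.24 to 4.34 in the other 3.

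Likeness to Nr4a1 over the 15 arrays was measured as the root mean square log2 difference after each gene's mean over the 7 Cre- arrays was subtracted, so it picks genes with Cre differences close to those of Nr4a1. Ngfr, a neurotrophin receptor, was closest at 0.31, with Cre differences of 3.51 at 4 months and 3.60 at 7 months. It was followed by P2rx7, an ATP-gated ion channel (0.43; 4.13 and 4.57), Snap91, a clathrin assembly protein (0.58; 3.17 and 3.31), and Cd68, a lysosomal glycoprotein used as a macrophage marker (0.59; 3.86 and 5.13). Tyrp1, a melanosome enzyme and classic MiT family target (0.61; 4.05 and 4.76), and Ndc1, a nuclear pore protein (0.61; 3.31 and 3.12), closed the list. Levels of Ngfr were 4.52 (SD 0.10, n = 4) and 8.03 (SD 0.13, n = 4) at 4 months and 4.62 (SD 0.10, n = 3) and 8.23 (SD 0.25, n = 4) at 7 months, in Cre- and Cre+ kidneys. Cd68 and Tyrp1 stood higher at 7 than at 4 months in Cre+ kidneys, with means of 11.48 and 10.29 for Cd68 and 8.63 and 7.62 for Tyrp1, while those of Nr4a1 were 9.25 and 8.94.

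For Fos another measure was used, with the group means removed, so its neighbours cannot be set against those of Nr4a1. The genes whose deviations from the group means went most with those of Fos were Rel, an NF-kB subunit (Pearson r = 0.96 over 15 arrays), Tnfsf13b, the B cell survival factor BAFF (0.93), and Cyth4, an exchange factor of blood cells (0.92). Zscan22 (0.90), Ilf2 (0.89) and Fbln1 (0.89) came next. These were taken from the top of a ranking of all genes over arrays that share their scaling, and are a description. Rel differed between Cre+ and Cre- by 0.61 and 1.34 at 4 and 7 months, Ilf2 by 0.06 and 0.05.

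A wider list of 49 measured immediate early genes, chosen from general knowledge but with earlier results of these data known, had more of its members past the test at 7 months. At 4 months 12 of the 49 had an unadjusted p below 0.05, beside 3616 of all 22180 genes. By the adjusted test 4 rose there (8.16%, beside 2.73% of all genes) and 0 fell, with a median difference of 0.10. These were Plk2, a stress-induced kinase (0.67, SE 0.15, limma adjusted p = 0.0148), Socs3, a brake on cytokine signalling (0.65, SE 0.13, adjusted p = 0.00643), the circadian repressor Bhlhe40 (0.61, SE 0.13, adjusted p = 0.0149) and the zinc finger factor Klf6 (0.46, SE 0.11, adjusted p = 0.0238). At 7 months 21 rose (42.9%, beside 11.7% of all genes) and 3 fell (6.12%, beside 10.8%), with a median of 0.27. The 4-month count was 2 without Cre- replicate 1, Cre+ replicate 3 or Cre+ replicate 4, and 7 without Cre+ replicate 1. At 7 months the count of risers ran from 14 (without 7-month Cre- replicate 2) to 22 over the arrays left out in turn. Over the settings that keep all arrays it was 3 to 7 at 4 months and 18 to 21 at 7 months.

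Klf6 had the largest 7-month rise of the list, 1.34 (SE 0.12, limma adjusted p = 4.89e-07), from a mean of 6.93 (SD 0.07, n = 3) to 8.27 (SD 0.13, n = 4). Tnfaip3, the A20 brake on NF-kB, rose by 1.32 (SE 0.12, adjusted p = 5.25e-07), Nfkbiz, an NF-kB cofactor, by 1.20 (SE 0.15, adjusted p = 1.57e-05) and the matrix protein gene Ccn2 by 1.05 (SE 0.13, adjusted p = 1.8e-05). The 3 that fell were Dusp1, a MAP kinase phosphatase, by 0.97 (SE 0.20, adjusted p = 0.00135), Errfi1, an inhibitor of the EGF receptor, by 0.73 (SE 0.11, adjusted p = 0.000162), and the ERK phosphatase Dusp6 by 0.57 (SE 0.19, adjusted p = 0.0397). Dusp1 means were 7.55 and 7.22 at 4 months and 7.44 and 6.46 at 7 months, in Cre- and Cre+ kidneys. Egr2, a relative of Egr1, stood at 0.44 at 7 months (adjusted p = 0.0622).

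Within Cre+ kidneys 11 of the 49 rose from 4 to 7 months and 3 fell, where 4.12% and 6.71% of all genes did. Among them were Tnfaip3 (0.90), Klf6 (0.87), Nfkbiz (0.83) and Dusp1 (-0.75). Tnfaip3, Nfkbiz and Klf6 were also the 3 whose Cre effect was larger at 7 months (6.12% of the list, beside 0.96% of all genes). Their effects were larger by 1.14 (SE 0.16, limma adjusted p = 0.00297), 0.93 (SE 0.20, adjusted p = 0.0244) and 0.88 (SE 0.16, adjusted p = 0.0094). Socs3 and Plk2 did not pass there, at 0.31 (SE 0.19, adjusted p = 0.436) and 0.07 (SE 0.21, adjusted p = 0.904).

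**Figure D4:**
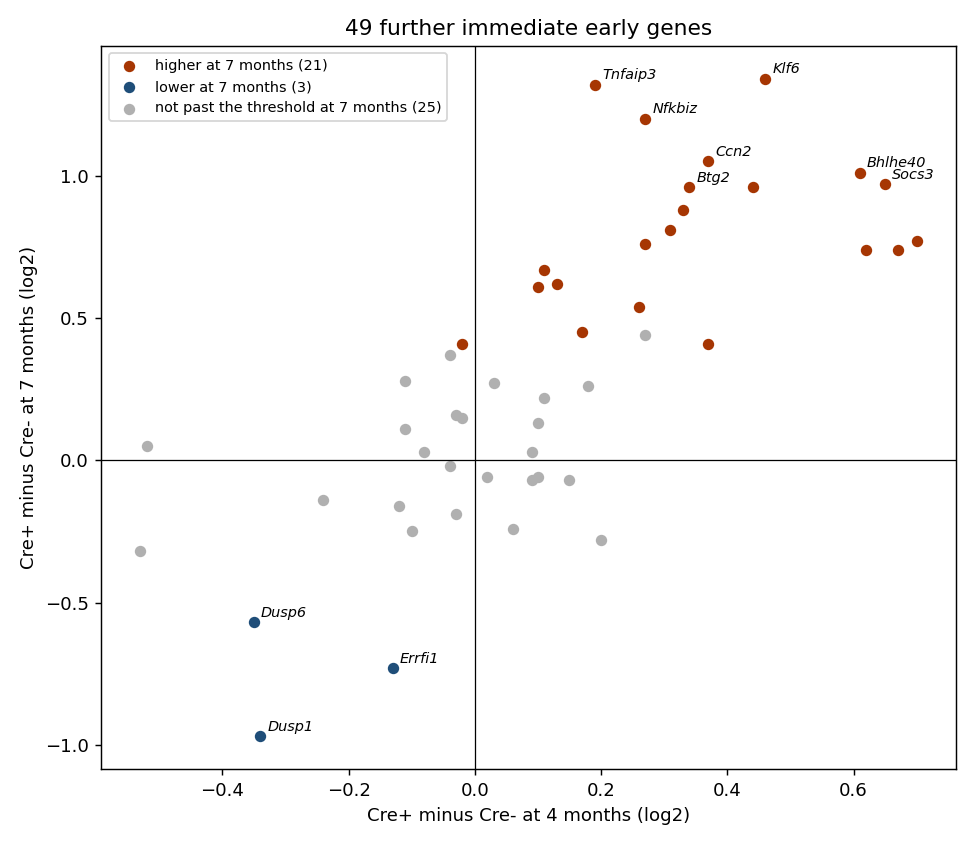
Difference between Cre+ and Cre- kidneys on the log2 scale at 4 months (x axis) and 7 months (y axis) for 49 further immediate early genes, 1 point per gene, coloured by whether the gene passed the limma test at 7 months. The 21 genes higher at 7 months are led by Klf6 and Tnfaip3, and the 3 lower ones are Dusp1, Errfi1 and Dusp6.

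Of 12 other bZIP factors of the AP-1 kind, 0 changed at 4 months, where 1 had an unadjusted p below 0.05, beside 3616 of all 22180 genes. At 7 months 2 rose and 2 fell (16.7% each), near the 11.7% and 10.8% of all genes. There Atf7 rose by 0.53 (SE 0.15, limma adjusted p = 0.0157) and Fosl2 by 0.52 (SE 0.15, adjusted p = 0.0167), while Maf fell by 0.97 (SE 0.15, adjusted p = 0.000104) and Mafg by 0.41 (SE 0.12, adjusted p = 0.0245). The count of risers ran from 0 to 2 when each array was left out. Of 23 factors and kinases that induce immediate early genes, 0 changed at 4 months (3 at an unadjusted p below 0.05, beside the same 3616 of all genes). At 7 months 6 rose (26.1%, beside 11.7% of all genes) and 2 fell (8.7%, beside 10.8%). The risers included Mef2c (0.66, SE 0.16, adjusted p = 0.00494), Mef2a (0.65, SE 0.11, adjusted p = 0.000242), the SRF partner Elk3 (0.65, SE 0.14, adjusted p = 0.00298) and the SRF cofactor Mrtfa (0.56, SE 0.11, adjusted p = 0.00109). Mapk14, the p38 kinase, fell by 0.49 (SE 0.14, adjusted p = 0.0145) and Prkaca, a protein kinase A subunit that acts on CREB, by 0.38 (SE 0.10, adjusted p = 0.0105).

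The integrated stress response is a pathway through ATF4 that can also induce Atf3. Of 19 of its genes, 1 rose and 1 fell at 4 months (5.26% each, beside 2.73% and 0.803% of all genes). At 7 months 3 rose (15.8%) and 2 fell (10.5%), near the 11.7% and 10.8% of all genes. Ddit3, the CHOP factor, rose at both ages, by 0.95 (SE 0.18, limma adjusted p = 0.00591) and 1.13 (SE 0.20, adjusted p = 0.000429). Slc7a11, a cystine transporter, rose by 1.0 (SE 0.19, adjusted p = 0.000733) and Asns, asparagine synthetase, by 0.62 (SE 0.16, adjusted p = 0.0102) at 7 months. Vldlr, a lipoprotein receptor, was the one that fell at 4 months, by 0.53 (SE 0.10, adjusted p = 0.00598). At 7 months it fell by 0.96 (SE 0.11, adjusted p = 6.95e-06), and Herpud1, of the endoplasmic reticulum, fell by 0.32 (SE 0.10, adjusted p = 0.0282).

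Heat shock genes mark protein-folding stress. None of 13 changed at 4 months by limma (3 at an unadjusted p below 0.05, beside 3616 of all 22180 genes). At 7 months 1 rose (7.69%, beside 11.7% of all genes), the small heat shock gene Hspb8 (0.84, SE 0.13, limma adjusted p = 0.000167). There 3 fell (23.1%, beside 10.8%): the mitochondrial chaperonins Hspd1 (-0.76, SE 0.12, adjusted p = 0.000248) and Hspe1 (-0.66, SE 0.11, adjusted p = 0.0003), and Hsph1 (-0.73, SE 0.19, adjusted p = 0.0107). The count that fell ran from 2 to 3 over the arrays left out in turn, and from 3 to 4 over the settings that keep all arrays. The 7-month controls were uneven in Hsph1, at 7.97, 8.04 and 8.77, against 7.26 to 7.62 in Cre+ kidneys.

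RXR genes and other orphan receptors were read beside Nr4a1. Of 14 measured, 0 rose by limma at either age. In either direction 3 and 6 had an unadjusted p below 0.05, beside 3616 and 7288 of all 22180 genes. At 4 months 1 fell (7.14%, beside 0.803% of all genes), and at 7 months 4 fell (28.6%, beside 10.8%). Esrrb, an oestrogen-related receptor, fell by 0.89 (SE 0.17, limma adjusted p = 0.00489) and by 1.38 (SE 0.18, adjusted p = 2.55e-05). At 7 months Esrrg fell by 0.65 (SE 0.12, adjusted p = 0.000636), Esrra by 0.60 (SE 0.11, adjusted p = 0.000407) and Rxra, a partner of Nr4a1, by 0.54 (SE 0.15, adjusted p = 0.014).

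Several markers of immune cells, which also express these early genes, were higher in Cre+ kidneys at 4 months, and more of them at 7 months. Of 11 macrophage and monocyte markers 4 rose at 4 months (36.4%, beside 2.73% of all genes), with a median difference of 0.61. At 7 months 11 rose (100%, beside 11.7% of all genes), with a median of 1.60. Their summed log2 level was 9.50 to 10.15 in Cre- and 10.17 to 10.56 in Cre+ kidneys at 4 months, and 9.48 to 10 and 11.18 to 11.51 at 7 months. T cell markers had sums of 6.35 to 6.52 and 6.51 to 7.20 at 4 months and 6.05 to 6.28 and 7.61 to 8.08 at 7 months. Among the 4 T cell markers, 1 rose at 4 months (beside 2.73% of all genes) and 4 rose at 7 months (beside 11.7%). B cell markers had sums of 5.65 to 5.78 and 5.68 to 6.13, and then 5.58 to 5.72 and 6.10 to 7.20. Of these 3 markers, 0 rose at 4 months and 3 rose at 7 months (100%, beside 11.7% of all genes). Of 7 nephron markers 1 fell at 4 months (14.3%, beside 0.803% of all genes) and 4 fell at 7 months (57.1%, beside 10.8%). Their 7-month sums were 14.08 to 14.24 in Cre- and 13.52 to 13.76 in Cre+ kidneys. Of the other marker lists, 2 of 5 fibroblast genes and 1 of 4 neutrophil genes rose at each age by limma. The share of all genes called higher was 2.73% at 4 months and 11.7% at 7 months. At 7 months 2 of 7 endothelial, 1 of 5 adrenal and 1 of 4 adipocyte genes fell, beside 10.8% of all genes. There 0 of 3 smooth muscle genes passed (1 at an unadjusted p below 0.05, beside 7288 of all 22180 genes). The part of these cells in the levels of Nr4a1, Jun, Atf3, Egr1, Fos and the wider list was not tested.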

How the data were processed

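Kidney RNA was hybridised to Affymetrix Mouse Gene 2.0 ST arrays, per the labels. The authors deposited log2 values made with RMA (background correction, between-array normalization and probe summary) in Partek 6.6, per the submitters' processing notes. The log2 unit was taken from the values, 1.04 to 13.12. For the array annotation, the genome build was not given in the sources used here. Of 41345 entries on 15 arrays, 23521 carried 1 gene symbol, 1814 several and 16010 none; 23328 symbols matched RefSeq GRCm38.p6 by identifier. Where a gene had several entries (1082 genes), that of highest mean was used, which left 22180 genes with no filter on level.

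Groups came from the titles and genotype labels. A model of 4 group means over all 15 arrays was fitted with limma 3.58.1 (lmFit, eBayes) in R 4.3.3, with 5 contrasts, two-sided tests, and Benjamini-Hochberg adjustment over all genes at 0.05. Errors of differences are standard errors of the fit. The number of mice sets the precision, as each array is 1 mouse. Correlations used exact permutation in Python 3.11.15 with numpy 2.4.6, and ranks from scipy 1.17.1. Deviations from group means were permuted across both ages of a genotype, so the p-values of the correlations are approximate. The procedure was tested on simulated data. Alternatives were a filter on dim genes (above 5.0, the median of all named genes, in at least 3 arrays), median centring, quantile normalization, eBayes with trend and robust settings, unmoderated linear models, fits of the compared groups only, the replicate number as a block, an added Y-linked covariate, averaging a gene's entries and each array left out; fits by Y-linked kind came later, with the data in view.

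The 10 genes and all lists were chosen with earlier results of these data known. All 10 were named whatever their values, from each list up to 4 rising and 4 falling genes past the threshold per Cre comparison (or 2 as values), and the 6 genes most like Nr4a1 and most like Fos. Genes of the lists named for age or for the difference of effects, and Egr2, were chosen after their values were seen.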

Additional observations from a re-analysis of the deposited data

Results flagged for a closer look

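In the 4-month Cre- group, the highest of the 4 kidneys, replicate 2, stood apart from the other 3 in Fos, at 4.57 against 4.06 to 4.11, and in Egr1, at 5.60 against 4.24 to 4.34. In each case its gap to the nearest kidney exceeded Dixon's critical value for the group's range, a criterion that chance alone meets in about 5% of groups, with 30 sets of 4 kidneys examined. The difference of the Cre effects between 7 and 4 months was 1.07 for Atf3 (SE 0.22, limma adjusted p = 0.0177), built from the Cre comparisons that Atf3 was picked on and so not independent of that choice. Its adjusted p was 0.061 in the plain linear model and 0.0508 without 7-month Cre- replicate 2. All 4 Cre+ kidneys of 7 months (6.82 to 7.31) lay above all 4 of 4 months (5.85 to 6.10).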

How the results depend on the processing

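At 4 months the 178 lower genes became 268 with the filter, 287 with quantile normalization, 511 with median centring and 324 with the Y-linked covariate, and the share of calls that were higher went from 77.3% to 67.5% with quantile normalization and 49.3% with centring. At 7 months centring gave 3609 lower genes against 2394, a share of 39.3% higher against 52.0%, with the median of all genes at -0.12. For age in Cre+ kidneys quantile normalization gave 54.5% higher against 38.1%. For the difference of effects, the 213 higher genes became 359 with quantile normalization (56.5% higher against 44.8%), 321 with centring and 90 in the plain linear model, and the 262 lower became 137 in the plain linear model and 433 with the covariate. The 1 gene called in Cre- kidneys with age became 0 in the plain linear model, with the compared groups only and with the replicate block. Leaving out each array gave 370 to 904 higher and 72 to 197 lower genes at 4 months, 1846 to 2826 and 1867 to 2456 at 7 months, 604 to 949 and 956 to 1523 with age in Cre+, 0 to 1 and 0 with age in Cre-, and 108 to 228 and 117 to 288 for the difference of effects. The cause of these shifts was not tested. Replicate numbers did not pair the kidneys (correlations of deviations from -0.47 to 0.30 over 21 pairs). The 11 pairs above 0.1 were the 11 whose kidneys shared their Y-linked kind. With the number as a block the counts were 614 and 181 at 4 months, 2398 and 2329 at 7 months, 909 and 1445 with age in Cre+ and 185 and 233 for the difference. No difference of the 10 genes past the threshold changed sign, and Nr4a1 ran from 3.54 to 3.79 at 4 months over the arrays left out.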
